A study of Mus musculus with 2 samples.

Results

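Genes of mitosis, the kinetochore and cytokinesis were examined in liver macrophages from FABP7 KO and WT mice carrying MC38 liver metastases. The group holds 57 genes of the 22322 in the deposited table. They were taken by symbol from the spindle checkpoint, kinetochore, spindle, APC/C, condensin and cytokinesis machinery, with cyclins and kinesins other than Cenpe left out. The rule uses no measured value, but the genes were chosen with earlier results of these data known. Each genotype was represented by 1 library, so the spread between mice could not be measured and no test was made. Levels are in FPKM (fragments per kilobase of transcript, scaled to library size), which takes gene length into account, so levels can be set side by side between genes. Fabp7 itself was at 0.69 FPKM in the KO library and 354 FPKM in the WT library. FABP7 KO mice and WT mice were both of the C57BL/6 background, and the animals of the study were males aged 6 to 8 weeks. In both groups 500000 cells of MC38, a colon cancer line of the mouse, were placed in the spleen in 100 µl PBS, and macrophages were taken from the liver on day 10 by F4/80 positive selection after perfusion and collagenase digestion. A genotype label of the KO sample reads knockdown, whereas its title and the study's methods give a knockout, which was used here. The sources used here do not give the number of mice behind each library.

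In mitosis, condensins and topoisomerase compact and untangle the replicated chromosomes, kinetochores built on centromeric chromatin bind spindle microtubules, and the spindle checkpoint holds back the anaphase-promoting complex (APC/C) until every chromosome is attached. The APC/C then tags securin and cyclins for destruction, separase cuts cohesin, and the central spindle guides the ring that divides the cell. Most of these genes are transcribed late in the cell cycle and are silent in resting cells, and resident macrophages of the liver, the Kupffer cells, are known to be able to divide in place.

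All 57 genes had a row in the table and reached 1 FPKM in at least 1 library. Their summed level was 333 FPKM in the FABP7 KO library and 1223 FPKM in the WT library, and their median level was 2.54 FPKM in the KO and 15.7 FPKM in the WT library. Differences are log2 ratios of KO to WT with a pseudocount of 1 FPKM, a scale on which changes of weakly expressed genes look smaller than they are. A gene was called lower or higher when it differed at least 2-fold on that scale, which is a threshold of size without any error estimate. By this rule 50 of the 57 genes (87.7%) were lower in FABP7 KO macrophages and none was higher, where 2.95% of all 10770 genes at or above 1 FPKM were lower and 2.21% were higher. The difference reached 4-fold in 31 of them, where the share among all genes was 0.631%. The median log2 ratio of the group was -2.05, against 0.004 over all genes. Of the 68 genes in the whole table that were at least 4-fold lower, 31 (45.6%) belong to this group. The number of dividing cells and the amount of such RNA in each cell cannot be told apart in bulk RNA.

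**Figure D1:**
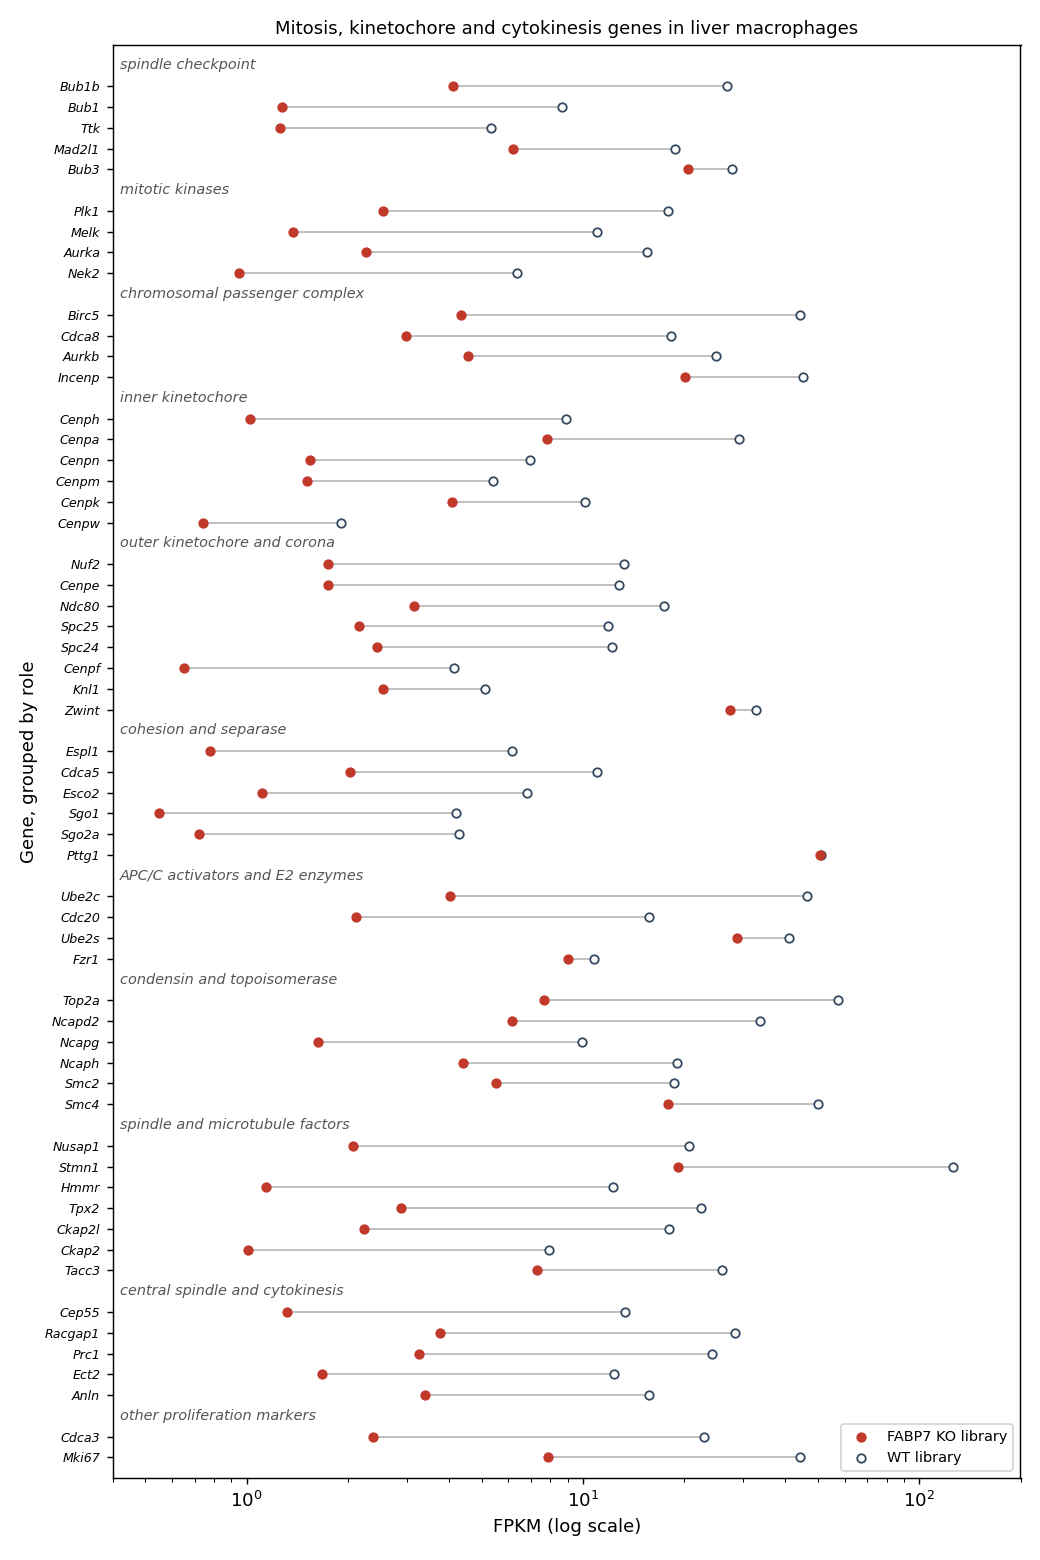
FPKM on a log axis for each of the 57 genes (rows, grouped by role and sorted by log2 ratio within a role), with filled points for the FABP7 KO library and open points for the WT library, 1 library each. The KO point lies left of the WT point in all rows, and for Pttg1, at 50.7 and 51.1 FPKM, the 2 points lie on top of each other.

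The level left in the KO library was then taken as a percent of the WT level from the plain FPKM values. It was under 10% for 4 genes, between 10% and 20% for 33, between 20% and 50% for 15 and over 50% for 5, with a median of 16.3%. From the step between low FPKM values, the depth was estimated at 17970000 fragments in the KO and 18110000 fragments in the WT library, and at this depth the genes of the group rest on about 33 to 2652 fragments in the KO and 146 to 9372 fragments in the WT library. Exact 95% intervals of the percent, which cover counting error only and not the spread between mice, excluded 100% for every gene of the group other than Pttg1. The fragment numbers use the joined exons of all transcripts of a gene. If the deposited values were computed on shorter lengths, the fragments are fewer and these intervals too narrow.

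**Figure D2:**
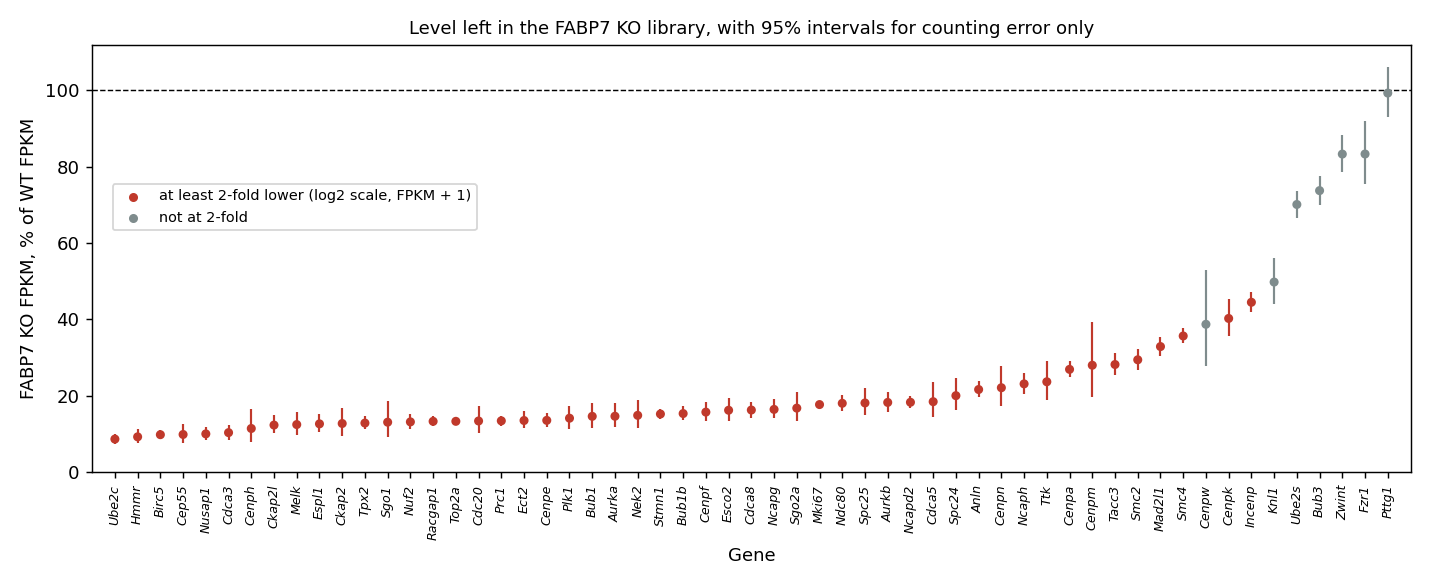
FPKM in the FABP7 KO library as a percent of the WT library for the 57 genes in rising order (points), with exact 95% intervals for counting error (vertical lines) and a dashed line at 100%. Genes at least 2-fold lower are red and the other 7 grey, and the grey points other than Cenpw and Knl1 lie between 70.1% and 99.3%.

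Before the single genes, the sequence at their starts is shown, since genes of this kind are known to share promoter elements. One is the cell cycle genes homology region (CHR), a short element near the start through which the DREAM and MuvB complexes act, and the other is the CCAAT box, bound by NF-Y. Promoter windows of RefSeq on GRCm38.p6, from 250 bases before to 50 after a start, were found for 50 of the 57 genes. Those printed are the 6 genes with the lowest log2 ratios that have a window and the 2 with ratios nearest to 0, Pttg1 and Fzr1, each from 120 bases before to 30 after the start, in the direction of the gene. Capitals mark TTTGAA or TTCGAA and CCAAT on either strand, so that TTCAAA and ATTGG are matches on the other strand.
Ube2c (chr2:164769809-164769958, + strand): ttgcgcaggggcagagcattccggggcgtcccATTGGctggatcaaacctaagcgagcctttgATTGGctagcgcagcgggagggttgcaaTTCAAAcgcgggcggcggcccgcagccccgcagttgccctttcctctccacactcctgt
Birc5 (chr11:117849117-117849266, + strand): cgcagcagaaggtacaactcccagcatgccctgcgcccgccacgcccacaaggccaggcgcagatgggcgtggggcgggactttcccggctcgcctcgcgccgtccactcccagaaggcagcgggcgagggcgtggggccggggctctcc
Cdca3 (chr6:124830056-124830205, + strand): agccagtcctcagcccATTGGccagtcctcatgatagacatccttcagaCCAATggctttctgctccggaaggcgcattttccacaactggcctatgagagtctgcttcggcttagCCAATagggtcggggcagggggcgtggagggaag
Nusap1 (chr2:119618178-119618327, + strand): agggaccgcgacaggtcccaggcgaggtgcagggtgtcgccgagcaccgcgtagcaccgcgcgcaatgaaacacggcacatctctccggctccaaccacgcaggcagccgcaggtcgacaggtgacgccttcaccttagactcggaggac
Top2a (chr11:99024160-99024309, - strand): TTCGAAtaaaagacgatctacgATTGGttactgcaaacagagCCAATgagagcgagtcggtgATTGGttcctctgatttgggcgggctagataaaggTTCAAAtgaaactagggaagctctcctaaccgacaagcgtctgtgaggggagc
Hmmr (chr11:40733408-40733557, - strand): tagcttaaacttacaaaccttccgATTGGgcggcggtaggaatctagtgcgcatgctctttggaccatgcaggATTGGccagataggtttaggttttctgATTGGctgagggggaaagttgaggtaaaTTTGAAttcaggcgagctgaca
Pttg1 (chr11:43425952-43426101, - strand): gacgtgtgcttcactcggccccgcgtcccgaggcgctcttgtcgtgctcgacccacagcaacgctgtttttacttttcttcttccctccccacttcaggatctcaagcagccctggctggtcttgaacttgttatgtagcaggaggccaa
Fzr1 (chr10:81378341-81378490, - strand): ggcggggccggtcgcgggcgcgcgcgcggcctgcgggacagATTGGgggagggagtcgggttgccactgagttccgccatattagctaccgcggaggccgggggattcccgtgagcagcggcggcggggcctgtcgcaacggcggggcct

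In the stretches shown, Ube2c had a CHR match whose first base lies at position -29 from the start, Top2a had matches at -120 and -23, and Hmmr had a match at 9 (counting the first base of the transcript as 1), and all 3 also held CCAAT matches. In Cdca3 the match begins at position 31, just past the stretch printed. Birc5 and Nusap1, which are among the 4 lowest ratios, held none of these letters in the whole window, nor did Pttg1, and Fzr1 held a CCAAT match alone.

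Over the whole windows, 35 of the 50 genes (70.0%) held TTTGAA or TTCGAA on either strand, whereas 16.7% of the other 8520 measured genes with a window and 21.7% of all 27025 genes with a window did. The CCAAT letters were in 36 of the 50 (72.0%), against 43.1% of the other measured genes, and both elements together were in 29 (58.0%), against 6.87%. Among the genes of the group that were at least 2-fold lower, 31 of 43 (72.1%) held a CHR match. Among the 7 that were not, 4 (57.1%) did (Bub3, Cenpw, Knl1 and Ube2s). Of those at least 4-fold lower, which are part of the 43, 22 of 28 (78.6%) held one. These sets overlap or are small, and their shares were not tested against each other. The E2F motif, searched as TTTCCCGC, TTTCGCGC, TTTGCCGC and TTTGGCGC on both strands, was in 3 of the 50 (6.00%), against 4.94% of the other measured genes. The matches lay near the start. Within the 50 bases after it, 36.8% of the group's 57 windows held a match, against 1.66% of 10856 windows of the other measured genes, and within the 50 bases before it 22.8% did, against 1.93%. Windows of the same gene can overlap, the start used in these macrophages was not measured, and a match is a description of letters and not a bound site.

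**Figure D3:**
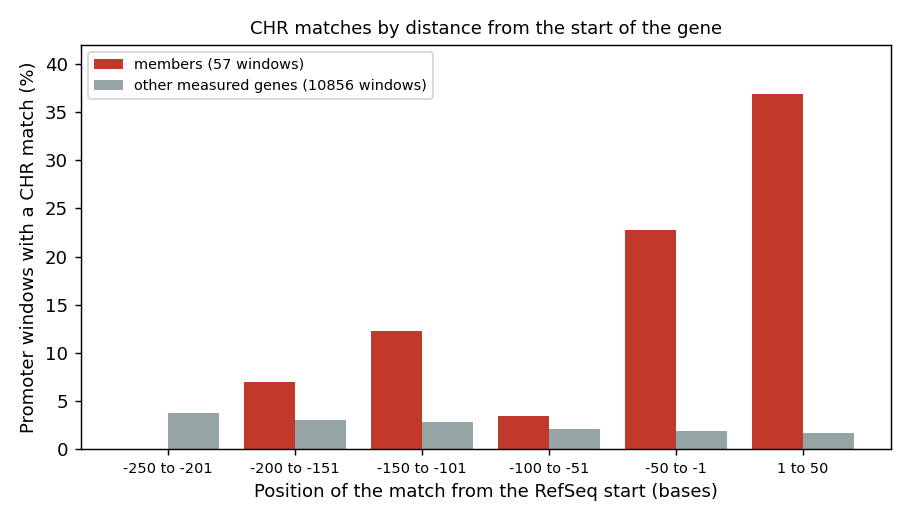
Percent of promoter windows with a CHR match (TTTGAA or TTCGAA, either strand) in 50-base bins of distance from the RefSeq start, for the 57 windows of the group (red) and the 10856 windows of other measured genes (grey). The red bars reach 22.8% and 36.8% in the 2 bins beside the start, where the grey bars stand at 1.93% and 1.66%.

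The mitotic kinases were lower as a group, all 4 of them by at least 2-fold. Plk1, the Polo-like kinase that drives entry into and exit from mitosis, stood at 2.54 FPKM in KO and 17.96 FPKM in WT macrophages, a log2 ratio of -2.42. Aurka, the centrosomal Aurora kinase that matures the spindle poles, was at 2.27 FPKM in KO and 15.5 FPKM in WT (log2 ratio -2.33). Melk, a kinase of dividing cells, was at 1.37 FPKM in KO and 10.98 FPKM in WT, and Nek2, which splits the centrosomes, at 0.95 FPKM in KO and 6.38 FPKM in WT. The percent left in KO was alike in these 4 genes, from 12.5% to 14.9%.

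The chromosomal passenger complex corrects faulty attachments and later marks the site of division. Birc5 (survivin), its targeting subunit, was at 4.35 FPKM in KO and 44.3 FPKM in WT macrophages, 9.83% of the WT level (interval 8.63 to 11.2%) and the second lowest log2 ratio of the group (-3.08). Its kinase Aurkb was at 4.55 FPKM in KO and 24.9 FPKM in WT, and Cdca8 (borealin) at 2.98 FPKM in KO and 18.3 FPKM in WT. Incenp, the scaffold that joins these subunits, was the least reduced, at 20.1 FPKM in KO and 45.2 FPKM in WT, which left 44.5% (41.9 to 47.3%). The 4 subunits of this complex therefore ranged from 9.83% to 44.5% of their WT levels, and the intervals of Birc5 and Incenp lay far apart.

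Among the 5 genes of the spindle checkpoint, 4 were at least 2-fold lower. Bub1b (BubR1), which inhibits the APC/C, was at 4.11 FPKM in KO and 26.8 FPKM in WT, and Bub1, the kinase that recruits it, at 1.27 FPKM in KO and 8.68 FPKM in WT, so that both kept about the same part of the WT level (15.4% and 14.6%). Ttk (Mps1), which starts checkpoint signaling, was at 1.26 FPKM in KO and 5.32 FPKM in WT. Mad2l1, which binds Cdc20 when kinetochores are free, was at 6.19 FPKM in KO and 18.8 FPKM in WT (32.9%). Bub3, the shared adaptor of Bub1 and Bub1b, was at 20.5 FPKM in KO and 27.8 FPKM in WT, 73.8% of the WT level, and did not reach 2-fold.

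The inner kinetochore begins with Cenpa, the histone variant that marks centromeres, which was at 7.83 FPKM in KO and 29.1 FPKM in WT macrophages (log2 ratio -1.77). Of the centromere network that sits on it, Cenph was at 1.02 FPKM in KO and 8.91 FPKM in WT (log2 ratio -2.29), and Cenpk, its partner in the same subcomplex, at 4.08 FPKM in KO and 10.1 FPKM in WT (-1.13). Cenpm was at 1.51 FPKM in KO and 5.39 FPKM in WT, and Cenpn, which reads the Cenpa nucleosome, at 1.54 FPKM in KO and 6.96 FPKM in WT. Cenph and Cenpk thus differed in what was left, 11.4% (7.80 to 16.6%) against 40.3% (35.7 to 45.4%). Cenpw, the lowest gene of the group in WT, was at 0.74 FPKM in KO and 1.91 FPKM in WT. Its log2 ratio of -0.74 missed the size rule with a pseudocount of 1 FPKM and passed it with 0.1 FPKM (-1.26).

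In the outer kinetochore, the 4 subunits of the NDC80 complex, the main microtubule coupler, were all at least 2-fold lower. Ndc80 was at 3.14 FPKM in KO and 17.4 FPKM in WT, Nuf2 at 1.75 FPKM in KO and 13.3 FPKM in WT, Spc24 at 2.44 FPKM in KO and 12.2 FPKM in WT, and Spc25 at 2.16 FPKM in KO and 11.9 FPKM in WT. Between 13.2% (Nuf2, interval 11.3 to 15.3%) and 20.05% (Spc24, interval 16.3 to 24.6%) of the WT level was left. The corona proteins Cenpe, a kinetochore motor, at 1.74 FPKM in KO and 12.8 FPKM in WT, and Cenpf, at 0.65 FPKM in KO and 4.13 FPKM in WT, were also at least 2-fold lower. Knl1, the platform for Bub1, was at 2.55 FPKM in KO and 5.12 FPKM in WT, 49.8% of the WT level, with a log2 ratio of -0.79. Zwint, which binds Knl1, was at 27.3 FPKM in KO and 32.8 FPKM in WT (83.3%), and so stood at a higher level in KO than the other inner and outer kinetochore genes of the group.

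Of the 6 genes that protect or release sister chromatid cohesion, 5 were at least 2-fold lower. Espl1 (separase), the protease that cuts cohesin, was at 0.78 FPKM in KO and 6.16 FPKM in WT macrophages (log2 ratio -2.01). Cdca5 (sororin), which holds cohesin on chromatin, was at 2.03 FPKM in KO and 10.99 FPKM in WT, and Esco2, which acetylates cohesin, at 1.11 FPKM in KO and 6.84 FPKM in WT. The shugoshins, which guard centromeric cohesin, were at 0.55 FPKM in KO and 4.20 FPKM in WT (Sgo1) and at 0.72 FPKM in KO and 4.29 FPKM in WT (Sgo2a). Pttg1 (securin), the inhibitor of separase, was at 50.7 FPKM in KO and 51.1 FPKM in WT, a log2 ratio of -0.01 that became 0.03 when the KO library was scaled by the median ratio of well expressed genes. Separase and its inhibitor thus stood apart, with 12.7% (10.4 to 15.3%) of the WT level left for Espl1 and 99.3% (93.1 to 106%) for Pttg1.

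The activators and ubiquitin-conjugating enzymes of the APC/C fell into 2 pairs. Cdc20, the activator used in metaphase, was at 2.11 FPKM in KO and 15.7 FPKM in WT, whereas Fzr1 (Cdh1), the activator used after mitosis and in resting cells, was at 9.01 FPKM in KO and 10.8 FPKM in WT. In WT macrophages Cdc20 stood above Fzr1, and in KO macrophages Fzr1 stood above Cdc20. Ube2c, the enzyme that primes APC/C substrates, was at 4.03 FPKM in KO and 46.5 FPKM in WT. Its log2 ratio of -3.24 was the lowest of the group, and among all measured genes only Fabp7 had a lower one. Ube2s, which extends the ubiquitin chains, was at 28.7 FPKM in KO and 40.9 FPKM in WT, and 70.1% of its WT level was left, against 8.67% (7.42 to 10.1%) for Ube2c.

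All 6 genes of chromosome compaction were at least 2-fold lower. Top2a, the topoisomerase of dividing cells, was at 7.65 FPKM in KO and 57.4 FPKM in WT (log2 ratio -2.76). The subunits found only in condensin I were at 6.15 FPKM in KO and 33.6 FPKM in WT (Ncapd2), 1.63 FPKM in KO and 9.91 FPKM in WT (Ncapg) and 4.40 FPKM in KO and 19.0 FPKM in WT (Ncaph). The ATPase subunits, which condensin I shares with condensin II, kept more of their WT level, 29.4% for Smc2 (5.50 FPKM in KO and 18.7 FPKM in WT) and 35.7% for Smc4 (17.9 FPKM in KO and 50.1 FPKM in WT), against 16.4% to 23.1% for the 3 condensin I subunits.

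The spindle and microtubule factors had the lowest median log2 ratio of the larger roles (-2.59 over 7 genes). Stmn1 (stathmin), which destabilizes microtubules and is also expressed outside mitosis, had the highest WT level of the group, with 19.1 FPKM in KO and 125.6 FPKM in WT. Nusap1, which bundles spindle microtubules, was at 2.07 FPKM in KO and 20.6 FPKM in WT, Hmmr at 1.14 FPKM in KO and 12.3 FPKM in WT, and Tpx2, the activator of Aurka, at 2.88 FPKM in KO and 22.4 FPKM in WT. Ckap2 was at 1.01 FPKM in KO and 7.92 FPKM in WT and its relative Ckap2l at 2.23 FPKM in KO and 18.1 FPKM in WT. Tacc3, which stabilizes kinetochore fibers, kept the most of its WT level among the 7, at 7.30 FPKM in KO and 25.9 FPKM in WT (28.2%).

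The 5 genes of the central spindle and of cytokinesis were all at least 2-fold lower. Prc1, which bundles the midzone microtubules, was at 3.25 FPKM in KO and 24.2 FPKM in WT macrophages, and Racgap1, a subunit of the centralspindlin complex, at 3.76 FPKM in KO and 28.2 FPKM in WT. Ect2, the exchange factor that turns on RhoA at the division site, was at 1.68 FPKM in KO and 12.4 FPKM in WT. Cep55, needed for the final cut at the midbody, was at 1.32 FPKM in KO and 13.4 FPKM in WT, and Anln (anillin), the scaffold of the contractile ring, at 3.40 FPKM in KO and 15.7 FPKM in WT. Over these 5 genes, 9.88% (Cep55) to 21.7% (Anln) of the WT level was left. Mki67, the gene of the Ki-67 proliferation marker, was at 7.85 FPKM in KO and 44.3 FPKM in WT (log2 ratio -2.36), and Cdca3, which targets the Wee1 kinase for destruction, at 2.37 FPKM in KO and 22.9 FPKM in WT (-2.82).

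Thus 7 genes of the group did not reach 2-fold on the log2 scale used, namely Pttg1, Fzr1, Zwint, Bub3, Ube2s, Cenpw and Knl1. The first 5 kept 70.1% to 99.3% of their WT level, at 9.01 FPKM or more in the KO library. In plain FPKM, Cenpw kept 38.7% and Knl1 49.8% (interval 44.0 to 56.2%). With a pseudocount of 0.1 FPKM, Cenpw passed the rule (log2 ratio -1.26) and Knl1 still fell just short of it (-0.98). The members nearest to the size rule were Incenp (log2 ratio -1.13) and Cenpk (-1.13) on the lower side and Knl1 (-0.79) on the other. Some of these genes share sequence with other genes. In GENCODE M21, 6 of the 57 (Cdc20, Ndc80, Plk1, Sgo1, Sgo2a and Stmn1) match a transcript of another gene at 90% identity or more over at least 30% of their length, and 4 (Ncapg, Prc1, Sgo2a and Ube2c) overlap exons of a gene on the other strand by 10% or more of their own exon bases. The similar transcript of Sgo2a is that of the gene overlapping it, Kctd18. The sources used here do not say whether the counting was by strand, so reads of these 9 genes could be split or shared. The gene that overlaps Ube2c, Tnnc2, was listed at 0 in both libraries, and Kctd18 was at 4.16 FPKM in KO and 4.19 FPKM in WT. Of the 48 genes with neither feature, 41 were at least 2-fold lower.

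Genes of the same machinery outside the group were read from 12 further lists, which were not tested against each other. In the rest of the centromere network 8 of 15 measured genes were at least 2-fold lower and none higher (median log2 ratio -1.07), with Oip5, which helps load Cenpa, at 0.62 FPKM in KO and 8.54 FPKM in WT. Among outer kinetochore and checkpoint partners 9 of 16 were lower (median -1.20), with Zwilch, a subunit of the complex that brings dynein to kinetochores, at 1.73 FPKM in KO and 9.80 FPKM in WT. In the list of spindle assembly factors, augmin and gamma tubulin, 8 of 21 were lower (median -0.64), led by Spag5, at 1.10 FPKM in KO and 9.20 FPKM in WT. Of 14 midbody and cytokinesis partners, 5 were lower (median -0.18), among them citron kinase (Cit), at 0.87 FPKM in KO and 6.66 FPKM in WT, while Rhoa itself was at 460 FPKM in KO and 465 FPKM in WT.

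Of 15 genes of the APC/C core and its inhibitor, 1 was at least 2-fold lower (median -0.18), and this was the inhibitor Fbxo5 (Emi1), at 2.92 FPKM in KO and 9.65 FPKM in WT. The APC/C subunit Anapc5 was at 58.1 FPKM in KO and 95.7 FPKM in WT and Anapc15 at 88.2 FPKM in KO and 44.4 FPKM in WT, just short of 2-fold higher on the log2 scale (0.98). None of the 12 genes of the cohesin core and its loaders passed the size rule (median -0.30), with Rad21, the subunit that separase cuts, at 43.0 FPKM in KO and 64.6 FPKM in WT. Of the 3 condensin II subunits (median -0.75), Ncapg2 alone was at least 2-fold lower, at 5.80 FPKM in KO and 17.1 FPKM in WT. Of 12 genes of centriole duplication, 2 were lower (median -0.34), Plk4, the kinase that starts it, at 2.23 FPKM in KO and 6.69 FPKM in WT, and Stil at 1.02 FPKM in KO and 5.84 FPKM in WT. None of 8 measured paralogs of the group's genes passed the rule (median 0.02). Top2b, the paralog of Top2a (named after its values were seen), was at 14.4 FPKM in KO and 14.5 FPKM in WT. In KO macrophages Top2b thus stood above Top2a.

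Of 16 measured regulators of mitotic transcription, 4 were at least 2-fold lower (median -0.49). Foxm1, the activator of late cell cycle genes, was at 1.89 FPKM in KO and 14.3 FPKM in WT, and Mybl2, the MuvB partner in dividing cells, at 1.25 FPKM in KO and 4.64 FPKM in WT. Rbl1 (p107) was at 7.87 FPKM in KO and 18.9 FPKM in WT, and E2f8 at 1.42 FPKM in KO and 6.14 FPKM in WT. E2f4, the E2F of the DREAM complex in resting cells, was at 33.6 FPKM in KO and 37.3 FPKM in WT. Side by side with the group, 18 of 20 genes of replication and nucleotide supply passed the rule as lower, with a median log2 ratio of -1.41 and a median of 35.03% of the WT level left, where the 57 genes had -2.05 and 16.3%. All 8 mitotic cyclins, Cdk1 and partners were lower (median -1.95), with Ccnb1, the cyclin of mitotic entry, at 2.15 FPKM in KO and 19.4 FPKM in WT. The difference between these lists was not tested, since 1 library per genotype allows no test.

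**Figure D4:**
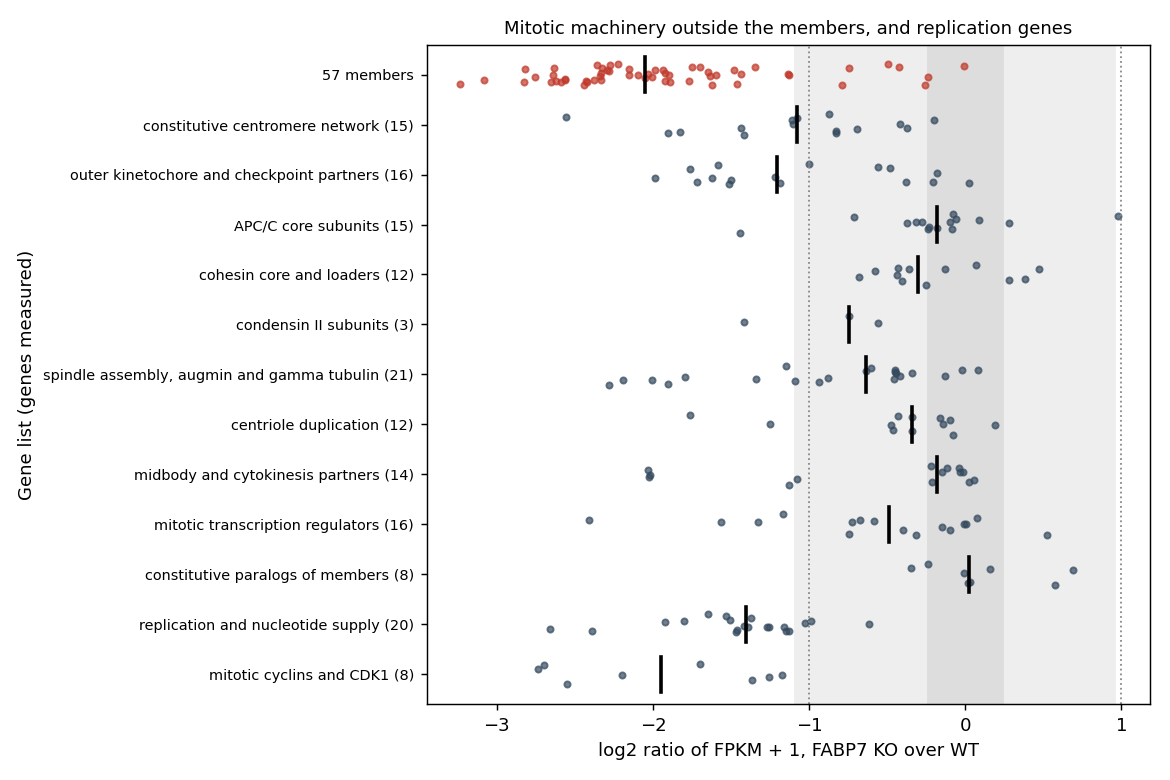
Log2 ratio of KO to WT levels (FPKM + 1) for each measured gene (points) of the group (red) and of 12 other lists (dark blue), with the median of each list (black bar). The grey bands span the central 50% and 95% of all 10770 genes (-0.24 to 0.24 and -1.09 to 0.96), the dotted lines mark 2-fold, and the median of the group at -2.05 lies left of both bands.

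The identity of the cells was read from 11 lists of cell type markers. Of 11 macrophage markers none was at least 2-fold lower and 1 was higher, Cd14, at 100.03 FPKM in KO and 49.04 FPKM in WT. Csf1r, the receptor of the macrophage growth factor, was at 3173 FPKM in KO and 2372 FPKM in WT, and the list summed to 9767 FPKM in KO and 7556 FPKM in WT. The 10 Kupffer cell markers summed to 18501 FPKM in KO and 17211 FPKM in WT. Their median log2 ratio was 0.19, with 3 lower and 7 higher in KO at any size. Clec4f, a lectin found on Kupffer cells, was at 4156 FPKM in KO and 3188 FPKM in WT. Cd5l, the most abundant of these markers, was at 6001 FPKM in KO and 6696 FPKM in WT. The gene that differed most in that list was Marco, a scavenger receptor, at 714 FPKM in KO and 1377 FPKM in WT (log2 ratio -0.95), just short of 2-fold. The 12 epithelial markers, taken for the tumor cells, summed to 7.01 FPKM in KO and 7.18 FPKM in WT, and 3 of them reached 1 FPKM. Of the others, 2 (Cldn4 and Cdx2) were at 0 in both, and Epcam was at 0.13 FPKM in KO and 0 in WT. The level of these markers in MC38 cells was not measured here, so the sums do not give the tumor cell content. The 13 T and NK cell markers summed to 48.2 FPKM in KO and 29.1 FPKM in WT. The difference between these sums is almost wholly that of Icos, the most abundant of them. Icos was at least 2-fold higher, at 33.1 FPKM in KO and 13.9 FPKM in WT. The T cell genes Cd3d, Cd3e and Cd8a stayed under 1 FPKM in both libraries. Of the 8 T and NK cell markers measured, Gzmb alone was at least 2-fold lower, at 0.89 FPKM in KO and 3.38 FPKM in WT. B and plasma cell markers (7 genes) summed to 32.1 FPKM in KO and 13.2 FPKM in WT, granulocyte and progenitor markers (10 genes) to 18.5 FPKM in KO and 4.40 FPKM in WT, and erythroid markers (9 genes, Gata1 at 0 in both) to 68.8 FPKM in KO and 27.7 FPKM in WT.

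The 9 markers of monocyte-derived cells moved with the group in sum, at 463 FPKM in KO and 954 FPKM in WT. This sum is mostly Plac8, at 427 FPKM in KO and 908 FPKM in WT. Among the others, Ly6c2 was at 4.63 FPKM in KO and 9.92 FPKM in WT. Chil3 went the other way, at 2.64 FPKM in KO and 1.47 FPKM in WT. Of the 8 measured genes, 4 were lower and 4 higher in KO at any size, and 1 was at least 2-fold lower. The list as a whole had a median log2 ratio of 0.07. With a floor of 5 FPKM this median was -0.96, so it depended on the weakly expressed genes of the list. Hepatocyte markers (10 genes) summed to 470 FPKM in KO and 238 FPKM in WT, endothelial markers (9 genes) to 312 FPKM in KO and 183 FPKM in WT, and stellate and fibroblast markers (8 genes) to 50.8 FPKM in KO and 18.3 FPKM in WT. Of the 9 endothelial markers, 5 were at least 2-fold higher in KO and none was at least 2-fold lower (median log2 ratio 1.41). Stab2, the most abundant of these 9, was at 118 FPKM in KO and 79.9 FPKM in WT. The part of any of these cells in the lower level of the mitotic genes was not tested.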

How the data were processed

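Poly(A) RNA of 1 FABP7 KO and 1 WT library was copied with random primers and read on an Illumina instrument. For 22322 genes the authors deposited FPKM values with 2 decimals, without counts. Bowtie2 (2.2.8) and TopHat2 (2.1.1) appear in the submitters' processing notes, with no role stated, while build, annotation, counter and filters are not given in the sources used. Values were the same in the joint table and in the single ones. Columns were assigned by name to the sample titles.

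Symbols were taken from GENCODE M21 by Ensembl ID for 22267 genes, and of rows with equal symbols the row of highest mean was used. Log2 ratios used a pseudocount of 1 FPKM over genes reaching 1 FPKM in either library, and the size rule was 2-fold. Depth was estimated from low values (0.03 to 1 FPKM) of genes with a single transcript of 300 to 1500 bases. At the best depth 89.8% of 256 KO values and 88.9% of 262 WT values lay within 0.15 of a whole fragment, where chance gives 30.0%. Fragments per gene assume GENCODE exon lengths, joined over all transcripts of a gene, and intervals are exact Clopper-Pearson intervals of 2 counts. The steps were tested on simulated libraries.

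The genes of the group, the further lists and the rule for naming genes in them (up to 4 with the largest ratios and up to 2 with the highest mean) were chosen with earlier results of these data known. Of the listed symbols, 5 had no row. Alternatives were another pseudocount, no floor, a floor of 5 FPKM, scaling KO values by the median ratio over genes with 10 FPKM in each library (factor 0.974) or by macrophage markers (factor 1.07), a 4-fold rule and narrower motif searches. RefSeq promoter windows were read 5′ to 3′ along the gene, and the last 20 bases of 53 of the group's 57 windows were found in a GENCODE transcript of the gene. Software was Python 3.11.15 with pandas 2.3.3, NumPy 2.4.6, SciPy 1.17.1, Matplotlib 3.10.9 and BLAST 2.17.0.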

Additional observations from a re-analysis of the deposited data

How the results depend on the processing

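Of the 57 genes, 50 were at least 2-fold lower without a floor and under both scalings, 51 with a pseudocount of 0.1 FPKM (Cenpw was added, at -1.26) and 47 of 53 with a floor of 5 FPKM, and none was higher under any of these. With the 4-fold rule 31 were lower, and 68 of all genes. The median log2 ratio of the group was -2.52 with a pseudocount of 0.1 FPKM and -2.03 to -2.15 under the others. Over all genes, 444 were lower and 562 higher with a pseudocount of 0.1 FPKM, against 318 and 238, and 361 and 182 with macrophage marker scaling. Of 281 values of single genes of the group under other settings, none passed the rule in the other direction and 1 moved past it. TTTGAA alone was found in 31 of the 50 genes with promoter windows, and a CHR match within 150 bases before the start or after it in 34. Depth limits the lowest genes, with Cenph at about 33 fragments in KO. No paired analysis was possible because each genotype has 1 library.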

Other observations

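Outside the group and the 12 lists, 23 further genes, Fabp7 itself among them, were at least 4-fold lower in FABP7 KO macrophages, and those named here were chosen after their values were seen. Several belong to mitosis, such as Knstrn, which links kinetochores to the spindle, at 3.71 FPKM in KO and 25.3 FPKM in WT, and the motors Kif20a, at 2.36 FPKM in KO and 19.6 FPKM in WT, and Kif11, at 2.86 FPKM in KO and 18.7 FPKM in WT. Another is Uhrf1, which keeps DNA methylation through replication, at 6.22 FPKM in KO and 28.4 FPKM in WT. A few are not known as cell cycle genes. Il15ra, the receptor subunit that presents interleukin 15, was at 6.31 FPKM in KO and 31.7 FPKM in WT, Ddit4 (Redd1), a stress-induced inhibitor of mTOR signaling, at 6.24 FPKM in KO and 29.0 FPKM in WT, and Slc5a11, a sodium-coupled inositol transporter, at 4.05 FPKM in KO and 20.4 FPKM in WT.

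Among the 203 other genes with a promoter window that were at least 2-fold lower, 77 (37.9%) held a CHR match and 37 (18.2%) the E2F motif, where the group had 70.0% and 6.00%. Of the 165 genes with a window that were at least 2-fold higher, 27 (16.4%) held a CHR match and 4 (2.42%) the E2F motif. These shares were not tested against each other.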
